A study of Mus musculus with 4 samples.

Results

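The cytosolic aminoacyl-tRNA synthetases are the enzymes that join each amino acid to its tRNA before translation. Probes were chosen by the gene name in the array files (Aars, Cars, Eprs, Gars, Iars, Lars, Mars, Nars, Sars or Wars), with control spots left out, so the rule itself reads names and no values. All 10 genes were found, with 12 of the 55681 probes of the array, which carries 36406 gene names. The cells were neural stem/progenitor cells (NSPCs) from Slc:ICR mouse embryos at embryonic day 13.5, grown in neurosphere medium with B-27, EGF and basic FGF. The wild-type group and the Trp53-/- group, which lacks the tumour suppressor p53 in all cells, had 2 arrays each. On each array, RNA of NSPCs given 20 μM PJ34, an inhibitor of poly(ADP-ribose) polymerases, carried Cy5 and RNA of untreated NSPCs of the same genotype carried Cy3. The time in PJ34 was not given in the sources used here. All samples are labelled Slc:ICR, but the Trp53 mutation was obtained as heterozygous mice from a resource centre, and its breeding history was not given, so an effect of p53 and one of mouse source cannot be told apart between the genotypes.

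Each synthetase recognises 1 amino acid, and Eprs carries glutamyl- and prolyl-tRNA synthetase in a single chain. Eprs, Iars, Lars and Mars sit in the multisynthetase complex with other synthetases and scaffold proteins, whereas Aars, Cars, Gars, Nars, Sars and Wars are not part of its core. When charged tRNA runs short, the kinase Gcn2 (gene Eif2ak4) phosphorylates eIF2, translation slows and the transcription factor ATF4 is made. Many cytosolic synthetase genes are known targets of ATF4, together with genes of amino acid synthesis and transport such as Asns.

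ATF4 with a C/EBP partner binds elements whose core can be written TGATGNAA. RefSeq promoters (GRCm38.p6) were given for 6 of the 10 genes, namely Aars, Eprs, Gars, Iars, Mars and Sars, and the 250 bases before each start were searched on both strands for these letters. They occurred once in Aars, with the first base 112 bases before the start, and once in Gars, 30 bases before it, both on the opposite strand (TGATGCAA and TGATGAAA). Eprs, Iars, Mars and Sars held no match in this window. Among all 32851 promoters of the same length, 3.45% held a match, and so did 9 of 35 promoters of the ATF4 target list described below. The sequences of both are shown because these 2 genes were the ones called lower in both genotypes. They read 5′ to 3′ on the strand of the gene, with the match in capitals, and a match is a description of letters, not of binding.
Aars, chr8:111033592-111033841 (+): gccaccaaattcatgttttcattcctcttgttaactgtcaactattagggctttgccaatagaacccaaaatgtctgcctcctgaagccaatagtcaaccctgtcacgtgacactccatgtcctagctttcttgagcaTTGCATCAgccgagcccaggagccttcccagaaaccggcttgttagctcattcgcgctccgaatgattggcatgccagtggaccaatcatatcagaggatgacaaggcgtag
Gars, chr6:55037751-55038000 (+): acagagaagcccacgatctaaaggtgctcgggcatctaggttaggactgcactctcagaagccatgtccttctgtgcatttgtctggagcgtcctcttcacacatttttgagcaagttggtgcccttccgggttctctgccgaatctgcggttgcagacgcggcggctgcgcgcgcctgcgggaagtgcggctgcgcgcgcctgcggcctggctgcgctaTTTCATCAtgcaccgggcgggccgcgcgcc

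Of the probes on the array, 27042 (48.6%) were kept. These had a signal well above background on both replicates of a genotype, in either channel and not always the same one. Of the 12 synthetase probes, 11 passed, and the scanner software rated each of them well above background on every array, for treated and for untreated RNA. The other probe, a second one for Aars, was well above background in the control channel on 0 arrays and in the PJ34 channel on 1, so each gene was read at its brightest probe. Markers of neural progenitors were well above background in the control channel on all 4 arrays for 8 of 8 genes. The same held for 4 of 5 neuronal, 3 of 4 astrocyte and 5 of 5 oligodendrocyte markers, and for 1 of 4 microglial (Csf1r), 1 of 4 endothelial (Kdr) and 0 of 4 fibroblast markers. As a check of the genotype labels, the untreated level of Trp53 was lower in Trp53-/- by a log2 difference of -0.71 (q = 0.0585), at a probe whose place relative to the targeted part of the gene is not known, and Cdkn1a, a p53 target, had a mean log2 ratio of 1.53 in wild-type and -0.61 in Trp53-/- (0.065 in Trp53-/- with all spots centred). Trp53-/- replicate 2 stood apart, since the log2 ratio of Eif2s3y, a Y-linked gene, was 4.22 there and between -0.20 and 0.84 on the other 3 arrays. On that array Eif2s3y was at 6.24 in the control channel and 10.46 in the PJ34 channel, and Ddx3y, also Y-linked, at 6.17 and 9.29. Sex of the embryos and PJ34 therefore cannot be told apart in the ratios of this array, which enter every Trp53-/- mean. Untreated levels of Eif2s3y were 8.96 and 8.47 in wild-type and 6.01 and 6.24 in Trp53-/-, and its probe was well above background in 2 of the 4 control channels, so sex of the embryos and genotype cannot be told apart in untreated cells. Counts of synthetases are also given without Trp53-/- replicate 2.

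After PJ34, with ratios centred by loess, that is, against probes of similar brightness, Aars, Gars and Nars fell in wild-type NSPCs and Aars, Cars and Gars in Trp53-/- NSPCs, whereas no synthetase was called lower in either genotype with ratios centred on the median of the kept probes. The lowest mean was that of Gars in wild-type, which fell by 25.4%. At p and q below 0.05 in limma, 3 of 10 genes were called lower in wild-type, where 10.4% of all probes tested were, and 3 of 10 were in Trp53-/-, where 9.68% of all probes were. None was called higher, against 12.3% and 12% of all probes, and none passed the 2-fold limit of the study's criteria in either direction, against 0.436% and 0.318%. At an unadjusted p below 0.05, the numbers were 5 genes in wild-type and 4 in Trp53-/-. All probes called above also pass this limit, and the full share of probes below it was not counted. The median log2 ratio of the 10 genes was -0.20 in wild-type and -0.18 in Trp53-/-, beside 0.03 for all probes tested in each genotype. Negative ratios were found for 9, 10, 9 and 9 of the 10 genes on wild-type replicates 1 and 2 and Trp53-/- replicates 1 and 2. In such bulk samples, less RNA per cell and fewer cells with that RNA cannot be told apart.

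**Figure D1:**
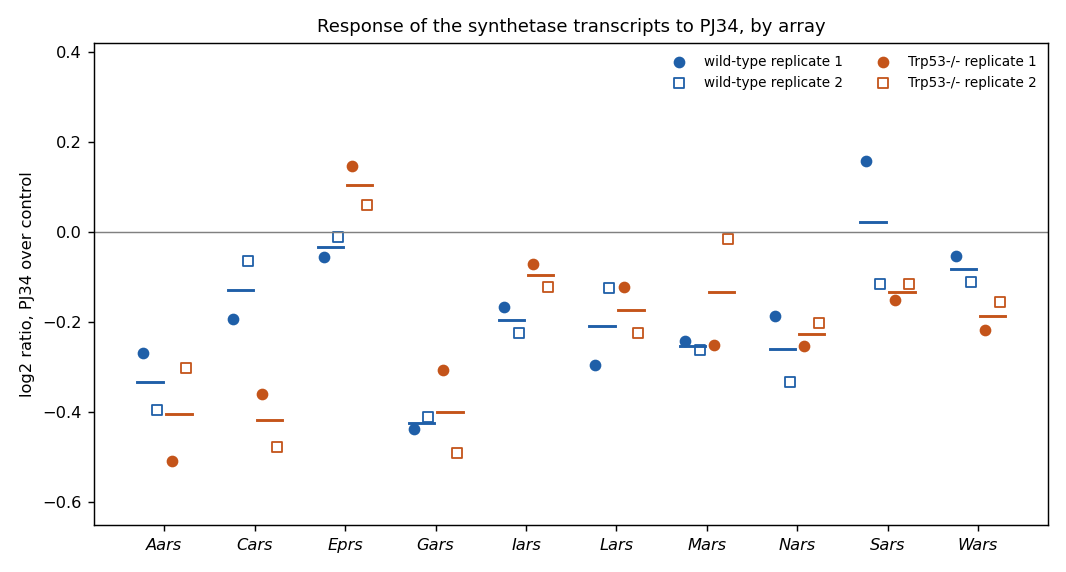
Log2 ratio of PJ34 over control after loess (vertical axis) for each synthetase gene (horizontal axis) on the 2 wild-type arrays (blue) and the 2 Trp53-/- arrays (orange), with filled circles for replicate 1, open squares for replicate 2 and a bar at the mean of each genotype. Gars and Aars lay below -0.25 on all 4 arrays, and Eprs lay on either side of 0.

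Gars, glycyl-tRNA synthetase, which serves both the cytosol and the mitochondria, was read at a probe on chromosome 6 (mm9, 55029377 to 55029436). Its log2 ratios were -0.44 and -0.41 on the wild-type arrays and -0.31 and -0.49 on the Trp53-/- arrays. All 4 were negative and the genotypes overlapped. The mean was -0.42 ± 0.09 (SE, n = 2, q = 0.00618 in limma) in wild-type and -0.40 ± 0.09 (q = 0.00922 in limma) in Trp53-/-.

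Aars, alanyl-tRNA synthetase (chromosome 8, mm9, 113579376 to 113579434), had ratios of -0.27 and -0.39 in wild-type and -0.51 and -0.30 in Trp53-/-. Again all 4 were negative and the genotypes overlapped. Its means were -0.33 ± 0.10 (q = 0.0204 in limma), where it fell by 20.6%, and -0.40 ± 0.10 (q = 0.0099 in limma), where it fell by 24.5%. Together with Gars it made up the genes called in both genotypes.

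Nars, asparaginyl-tRNA synthetase, gave -0.19 and -0.33 in wild-type and -0.25 and -0.20 in Trp53-/-. The ranges overlapped, yet it was called in wild-type alone, with -0.26 (q = 0.041 in limma) against -0.23 (q = 0.0621 in limma). The difference between the genotypes was -0.03 (95% interval -0.32 to 0.25), so the separate calls do not show that the genotypes differed. Sars, seryl-tRNA synthetase, had 0.16 and -0.11 in wild-type and -0.15 and -0.12 in Trp53-/-. It was the only one of the 10 whose wild-type arrays had opposite signs, and neither mean was called.

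Cars, cysteinyl-tRNA synthetase (chromosome 7, mm9, 150743615 to 150743674), was the gene in which the genotypes lay furthest apart. Its ratios were -0.19 and -0.06 in wild-type and -0.36 and -0.48 in Trp53-/-, and the genotypes did not overlap. The mean was -0.13 ± 0.09 (q = 0.199 in limma) in wild-type and -0.42 ± 0.09 (q = 0.00741 in limma) in Trp53-/-, where Cars fell by 25.2%. The difference, 0.29 (95% interval 0.0019 to 0.58), did not pass the threshold (q = 0.265 in limma).

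Wars, tryptophanyl-tRNA synthetase, which is known to be induced by interferon gamma, was measured by 2 probes. At the brighter one the ratios were -0.05 and -0.11 in wild-type and -0.22 and -0.16 in Trp53-/-, and at the dimmer one they were 0.03, -0.06, -0.01 and -0.01. No mean was called at either probe, and their positions (chromosome 12, mm9, 110098245 to 110098304 and 110104366 to 110104425) and accessions differ, so they may not read the same transcripts.

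None of the 4 genes of the multisynthetase complex was called in either genotype. Mars, methionyl-tRNA synthetase, came closest in wild-type, with -0.24 and -0.26 and a mean of -0.25 (q = 0.0522 in limma). Its Trp53-/- arrays gave -0.25 and -0.02, a wide spread, with a mean of -0.13 (q = 0.188 in limma). Its probe (chromosome 10, mm9, 126733940 to 126733999) lies near that of Ddit3, the stress factor CHOP, on the other strand (126732518 to 126732821). Ddit3, looked up for this reason after values were seen, had a mean of 0.12 (q = 0.229 in limma) in wild-type and fell by 0.49 (q = 0.0054 in limma) in Trp53-/-.

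Lars, leucyl-tRNA synthetase, which also takes part in leucine sensing, had ratios of -0.29 and -0.12 in wild-type and -0.12 and -0.22 in Trp53-/-. The genotypes overlapped, with means of -0.21 (q = 0.0815 in limma) and -0.17 (q = 0.121 in limma). Iars, isoleucyl-tRNA synthetase, gave -0.17 and -0.22 in wild-type and -0.07 and -0.12 in Trp53-/-. All 4 arrays were negative for both genes without a call. Eprs had -0.06 and -0.01 in wild-type and 0.15 and 0.06 in Trp53-/-. It was the only one of the 10 with a positive mean in Trp53-/-, 0.10 (95% interval -0.09 to 0.30).

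The response of the synthetases was then compared between the genotypes directly. None of the 10 differences was called, against 1.46% of all probes tested. Cars alone had an unadjusted p below 0.05, and the share of all probes below it was not counted. The differences, wild-type minus Trp53-/-, ran from -0.14 in Eprs to 0.29 in Cars, with a median of -0.03 beside -0.01 for all probes. For Gars the 95% interval ran from -0.31 to 0.27 and for Aars from -0.23 to 0.37, so a difference of a size close to their whole response was not resolved with 2 arrays per genotype. Cdkn1a, for scale, differed by 2.14 in the same fit.

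Leaving out arrays moved the counts. Without wild-type replicate 1, no synthetase was called lower in wild-type, and without wild-type replicate 2 only Gars was. Without Trp53-/- replicate 1, Cars and Gars were called in Trp53-/-, and without Trp53-/- replicate 2, the array that stood apart, only Aars was. With 1 array left in a genotype, the mean is the ratio of that array. The signs therefore add nothing to the ratios given above, which were all negative for Gars, Aars, Nars and Cars.

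The centring of the ratios decided the direction. Before loess, PJ34 ratios of the kept probes had a median of 0.42 in wild-type and 0.57 in Trp53-/- when each array was centred on the median of all its spots. Relative to that shift, the median of the synthetases was 0.03 higher in wild-type and 0.15 higher in Trp53-/-. With the kept probes centred on their own median, the log2 ratio of Gars was -0.08 in wild-type and 0.11 in Trp53-/-, Aars was at -0.08 and -0.02, Nars at -0.07 and 0.03, and Cars at 0.12 and -0.06. None of these passed the test. Sars, at 0.29 in wild-type (q = 0.0222 in limma) and 0.27 in Trp53-/- (q = 0.0159 in limma), and Eprs, at 0.31 in Trp53-/- (q = 0.0107 in limma), were called higher under this centring. Of all probes, 23% and 30.8% were then called lower in wild-type and Trp53-/-, and 23.1% and 27.4% higher. The log ratios of the scanner software lay close to those after loess, with -0.39 and -0.40 for Gars and -0.35 and -0.40 for Aars, but their q values (0.0718 and 0.0745, 0.0833 and 0.075) missed the threshold and no synthetase was called. The dyes were not swapped, so a dye bias of a probe and an effect of PJ34 cannot be told apart within a genotype. The order among the genes changed less than the sign, since in wild-type Gars, Aars, Nars and Mars had the 4 lowest values after loess, in the scanner software's ratios and without loess, where both median centrings share 1 order because they differ by a constant.

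**Figure D2:**
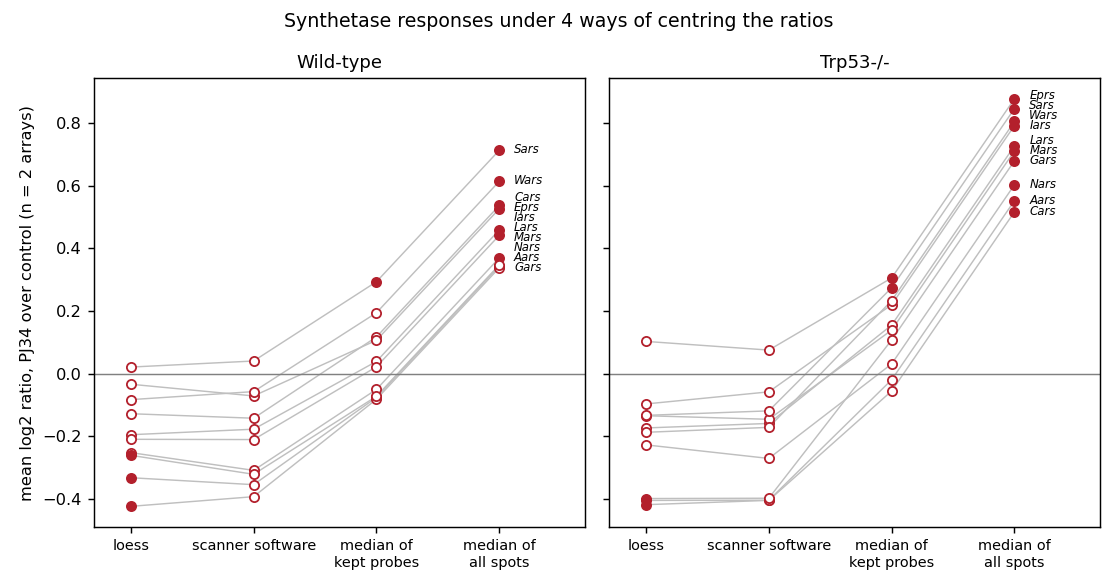
Mean log2 ratio of PJ34 over control (vertical axis, n = 2 arrays) of each synthetase under loess, the scanner software's log ratios, centring on the median of the kept probes and centring on the median of all spots (horizontal axis), for wild-type (left) and Trp53-/- (right), with lines joining a gene and filled points for p and q below 0.05. Means that were mostly below 0 under loess lay on both sides of 0 with the kept probes centred and above 0 with all spots centred.

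Untreated levels, the log2 intensities of the control channel, were compared next between Trp53-/- and wild-type, where the dye was the same on all 4 arrays. None of the 10 genes was called, against 6.03% of all probes tested. At an unadjusted p below 0.05 there were 2, Cars and Wars, and the share of all probes below it was not counted. Cars was at 11.84 and 12.23 in wild-type and at 12.64 and 12.56 in Trp53-/-. Its Trp53-/- values were the higher ones without overlap, with a difference of 0.56 ± 0.19 (SE, 95% interval 0.09 to 1.03, q = 0.0977 in limma). Wars, at its brighter probe, was at 12.93 and 13.05 against 13.39 and 13.43, again without overlap, and differed by 0.41 ± 0.16 (q = 0.12 in limma). At its dimmer probe the difference was smaller, 0.17 (95% interval -0.25 to 0.59, q = 0.357 in limma), so the size for Wars depended on the probe.

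Aars levels were 12.15 and 12.75 in wild-type and 13.02 and 12.91 in Trp53-/-, and Sars levels were 12.20 and 13.08 against 13.11 and 13.23. Their differences of 0.51 (95% interval -0.06 to 1.08) and 0.53 (-0.20 to 1.25) rested mostly on wild-type replicate 1, the lowest array for both. Gars was at 14.60 and 14.66 against 14.84 and 14.99, and Nars at 10.37 and 10.38 against 10.61 and 10.51. Both were higher in Trp53-/- without overlap, by 0.28 (95% interval -0.11 to 0.68) and 0.19 (-0.20 to 0.58). Mars overlapped, with 10.56 and 10.80 against 10.87 and 10.72 for a difference of 0.11.

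The other 3 genes of the multisynthetase complex had negative differences. Iars was at 11.82 and 11.88 in wild-type and at 11.71 and 11.52 in Trp53-/-, Lars at 12.45 and 11.58 against 11.82 and 11.90, and Eprs at 10.29 and 9.11 against 9.71 and 9.42. Iars differed by -0.24 without overlap, while Lars (-0.15) and Eprs (-0.13) had both Trp53-/- arrays between their wild-type arrays and turned positive when each control channel was centred on its median (0.06 and 0.04).

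The spread between the wild-type arrays set the limit here. They differed 2.26-fold in Eprs, 1.85-fold in Sars, 1.83-fold in Lars and 1.52-fold in Aars, and a larger gap was found in 1.83%, 5.59%, 5.91% and 17% of all probes tested. Eprs and Lars were higher on wild-type replicate 1, Sars and Aars on wild-type replicate 2. The differences, and the genes called, changed accordingly. With 1 array left out at a time, the difference of Eprs ran from -0.72 to 0.46 and that of Lars from -0.59 to 0.28, so both changed direction. That of Aars ran from 0.21 to 0.81 and that of Sars from 0.09 to 0.97. Over all 10 genes the median difference was 0.24, beside 0.01 for all probes tested. Most markers of other neural cell types were also higher in Trp53-/-. This held for 4 of 5 oligodendrocyte markers (median 1.05, among them Mbp, called at 1.98). It also held for 3 of 4 astrocyte markers (median 1.28, of which Gfap, at 2.38, and S100b, at 1.89, were called). Of 5 neuronal markers, 4 were higher (median 0.62), with Rbfox3 called higher (1.24) and Syp called lower (-0.80). The part of these markers in the synthetase levels was not tested.

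**Figure D3:**
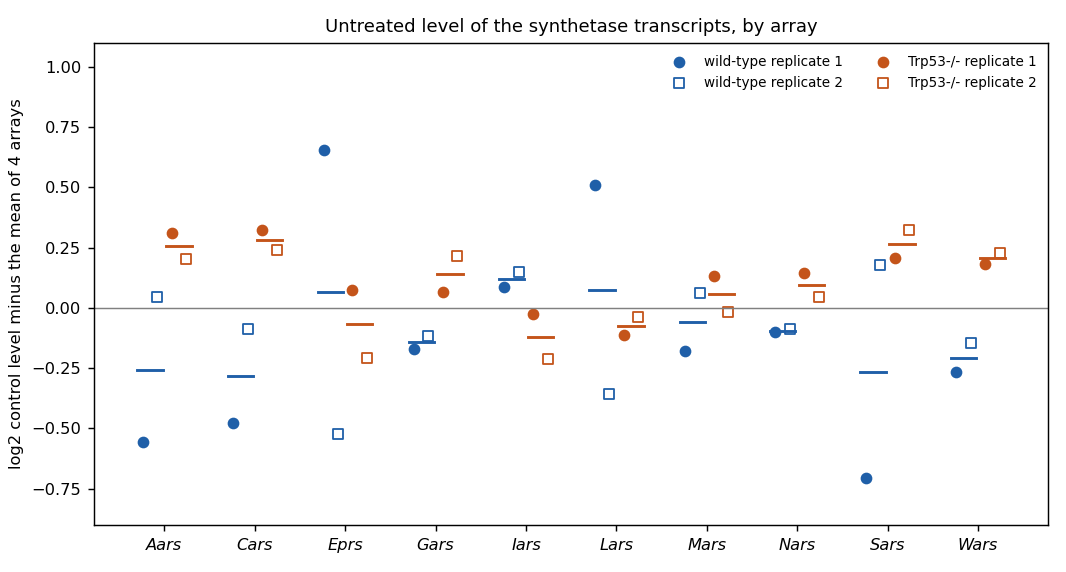
Log2 control level of each synthetase minus its own mean over the 4 arrays (vertical axis) by gene (horizontal axis), with the same symbols as in the plot of ratios. The wild-type arrays lay 1.18 apart for Eprs and 0.05 apart for Gars.

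The other genes of tRNA charging were taken from lists. Of the 11 other cytosolic synthetases, 1 was called lower in wild-type (Tarsl2, a second threonyl-tRNA synthetase gene, -0.39, q = 0.00906 in limma) and 1 higher in Trp53-/- (Dars, aspartyl-tRNA synthetase, 0.25, q = 0.0448 in limma). Their median was -0.05 in wild-type and 0.01 in Trp53-/-. The synthetases of mitochondria had 16 of 17 genes kept. In wild-type, 1 was called lower and 1 higher (median 0.00), beside 10.4% and 12.3% of all probes. In Trp53-/-, 1 was called lower and 6 higher (median 0.21), beside 9.68% and 12% of all probes. Tars2 (-0.42 and -0.49 after loess, 0.25 and 0.43 with all spots centred) was the lower one in both genotypes and Cars2 (0.31 and 0.34) was higher in both, while Sars2 (0.39) was called in Trp53-/- only. Without Trp53-/- replicate 2 the calls in Trp53-/- were 0 lower and 1 higher, and with the scanner software's ratios 0 were called in either genotype. None of the 16 differences between genotypes was called. In untreated cells, Aars2, the mitochondrial alanyl-tRNA synthetase, was the only gene of these lists called (10.17 and 9.94 in wild-type, 8.04 and 8.41 in Trp53-/-, -1.83, q = 0.0146 in limma). Of 8 scaffold proteins and elongation factors, 1 was called, Eef1d, at 0.27 in Trp53-/-. Neither Dars nor Eef1d was called without Trp53-/- replicate 1 or without Trp53-/- replicate 2, nor was Tarsl2 called lower without wild-type replicate 2. With the kept probes centred on their median, the medians of these 3 lists were positive in both genotypes, from 0.08 to 0.63.

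**Figure D4:**
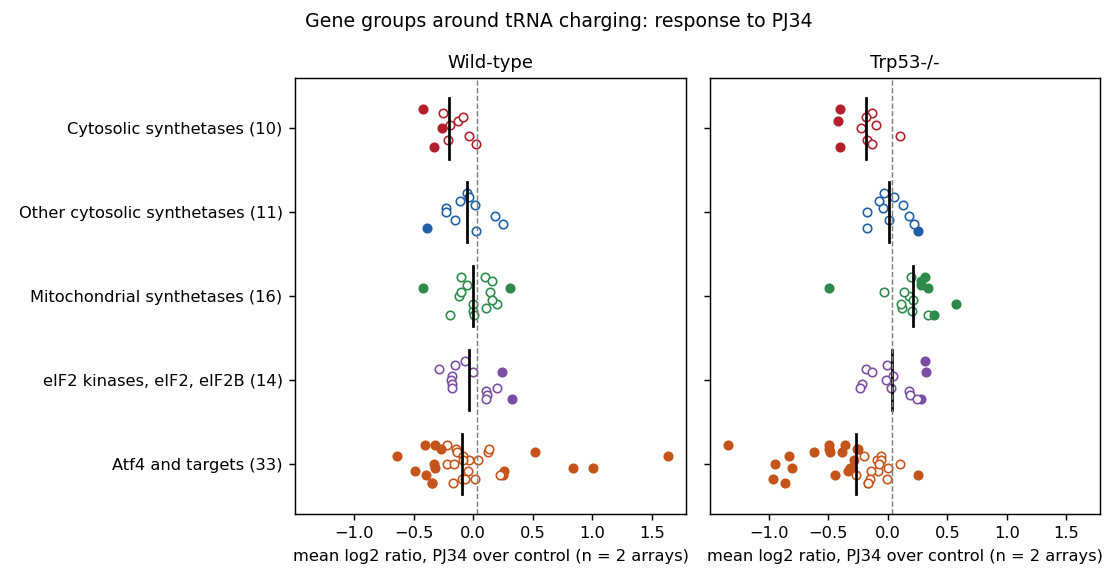
Mean log2 ratio of PJ34 over control after loess (horizontal axis, n = 2 arrays) of the genes of 5 lists (rows) in wild-type (left) and Trp53-/- (right), with filled points for p and q below 0.05, a black bar at the median of each list and a dashed line at the median of all probes tested. Medians of the 10 synthetases and of the ATF4 list lay left of the dashed line in both panels, and that of the mitochondrial synthetases lay right of it in Trp53-/-.

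Upstream of the synthetases, the sensors of the integrated stress response and the subunits of eIF2 and eIF2B, 14 genes, had 0 lower and 2 higher calls in wild-type and 0 lower and 3 higher in Trp53-/-, beside higher calls for 12.3% and 12% of all probes. The calls in Trp53-/- depended on Trp53-/- replicate 2, without which the median of the list was 0.01. With the kept probes centred there were 1 lower and 6 higher in wild-type and 1 lower and 8 higher in Trp53-/-. Under this centring 23% and 30.8% of all probes were called lower in wild-type and Trp53-/-, and 23.1% and 27.4% higher. Eif2ak1, the heme-regulated kinase, was higher in both (0.32 and 0.28), Impact, an inhibitor of Gcn2 activation, in wild-type (0.24), and Eif2ak2 (0.32) and Eif2ak4 (0.31) in Trp53-/-. The list of ATF4 and its targets outside tRNA charging had 33 of 34 genes kept. After loess, 10 were lower and 6 higher in wild-type (median -0.10), beside 10.4% and 12.3% of all probes. In Trp53-/-, 18 were lower and 1 higher (median -0.27), beside 9.68% and 12% of all probes. With all spots centred there were 0 lower and 14 higher in wild-type and 1 lower and 18 higher in Trp53-/-. Of all probes, 55.5% and 64.9% were then called higher. The median of the list minus that of all probes stayed negative there, at -0.09 in wild-type and -0.12 in Trp53-/-. The kept probes centred gave 7 lower and 7 higher in wild-type and 15 lower and 2 higher in Trp53-/-. The scanner software's ratios gave 2 lower and 2 higher and 6 lower and 0 higher. Without Trp53-/- replicate 2, the array that stood apart, the lower calls in Trp53-/- numbered 8, and in wild-type they numbered 4 without wild-type replicate 1 and 5 without wild-type replicate 2. This list holds both p53 targets and amino acid genes. Asns, asparagine synthetase, had ratios of -0.67 and -0.60 on the wild-type arrays and of -0.80 and -0.85 on the Trp53-/- arrays. Its means were also called lower with the kept probes centred on their median (-0.37 and -0.42), which held for none of the 10 tRNA synthetases, but not with all spots centred (0.05 and 0.15). The mRNA of Atf4, singled out after its values were seen, had means of -0.32 (q = 0.0374 in limma) and -0.50 (q = 0.00732 in limma) after loess and of 0.01 in both genotypes with the kept probes centred.

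In wild-type, Gdf15 (1.64), Sesn2 (1.01) and Ddit4 (0.83), all of them also known as p53 targets, were the ATF4-list genes with the largest increases. In Trp53-/- the largest changes were in Nupr1 (-1.35), Trib3 (-0.97), Chac1 (-0.94) and Eif4ebp1 (-0.86), all lower, though Eif4ebp1 was at 0.04 with all spots centred. By the difference itself, 7 of these 33 genes were called, against 1.46% of all probes tested. All 7 had the higher ratio in wild-type. They include Gdf15, which was not well above background in Trp53-/-, and Nupr1, well above background on only 1 of the 2 wild-type arrays after PJ34. The count was 5 without Trp53-/- replicate 2, 2 with all spots centred and 0 with the scanner software's ratios. Untreated levels of the list were lower in Trp53-/- for 2 genes and higher for 7, among them Trib3 (1.54), Nupr1 (1.45) and Atf5 (1.26). With the control channel centred on its median 0 were called, and the scanner software's signal gave 1 lower and 2 higher. The calls were lost without either Trp53-/- array, as were those of all other probes, and changed without either wild-type array. Calls over all probes changed there as well, so these changes are not particular to the list. The median difference of the list ran from 0.26 to 0.40 under these omissions. Oligodendrocyte markers were also lower after PJ34 in Trp53-/-, with 2 of 5 called (median -0.30), and their part in these responses was not tested.

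The genes whose 4 ratios were most like the mean profile of the synthetases (-0.17, -0.21, -0.21 and -0.20) were sought among 11507 genes with both channels well above background on all 4 arrays. By the root mean square difference over the 4 arrays, the nearest were Gm7065 (0.0137), Gm12770 (0.0177), Rbm42 (0.0238), Stt3a (0.0298) and Cib2 (0.0307). This profile is nearly flat, so likeness to it says little more than a small negative ratio on every array.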

How the data were processed

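Total RNA of PJ34-treated (Cy5) and untreated (Cy3) NSPCs was hybridized to 4 Agilent SurePrint G3 Mouse GE arrays, 2 per genotype, from independent RNA preparations, so p-values measure the spread between these arrays; dyes were not swapped and each array was a slide of its own. The authors deposited scanner output (Feature Extraction 10.7.3.1, mm9): spot and background intensity, a processed control signal and log10 ratios, the last 2 used only as alternatives. A table with 4 unnamed sample columns was not used. Background was corrected by normexp (offset 50), ratios by loess (limma 3.58.1, R 4.3.3), outlier spots (228 to 276 per array) left out and spots of a probe averaged. Untreated levels were the control channel after quantile normalization of mean intensities. Between 21505 and 27156 probes per channel were well above background and 0 spots saturated; the number of arrays limits precision. limma gave a mean per genotype (2 residual degrees of freedom, 10.49 after moderation; 6.178 for untreated levels), with Storey's q over all 27042 probes. The study's criteria (p and q below 0.05, over 2-fold) and the same without the fold limit were used. All 10 genes are named, at most 4 per other list by largest change at q below 0.05, and the 5 nearest profiles. Some genes that this rule names are not reported here. The members and lists were chosen with earlier results of these data known. The fit was tested on simulated data. Same-numbered arrays did not deviate together (correlation of deviations -0.169 for ratios, 0.0743 for control levels). Alternatives covered background, filter, normalization, block, variance trend, adjustment, probe averaging and each array left out.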

Additional observations from a re-analysis of the deposited data

Results flagged for a closer look

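By limma's test of the difference in response, wild-type minus Trp53-/-, none of the 10 synthetases was called, against 1.46% of all probes tested. Of the other genes named here, 8 were called. Genes of the other lists were mostly named for their large changes, and Cdkn1a as a p53 target, so the 2 counts cannot be compared. Gdf15 differed by 1.83 (q = 0.00638), with ratios of 2.12 and 1.16 in wild-type and -0.08 and -0.31 in Trp53-/-, where it was not well above background in either channel, so that the Trp53-/- ratio holds no measured response. In untreated cells its level was at least 3.67-fold higher in wild-type (q = 0.0113). Ddit4 differed by 1.64 (q = 0.00446), with 1.20 and 0.47 in wild-type and -0.80 and -0.81 in Trp53-/-. Nupr1 differed by 1.13 (q = 0.0023), with -0.28 and -0.15 in wild-type and -1.36 and -1.34 in Trp53-/-. Its untreated wild-type levels were low, 6.57 and 7.19, and after PJ34 it was well above background on only 1 of the 2 wild-type arrays. A larger fall in wild-type may therefore not have been measurable. Sesn2 differed by 1.01 (q = 0.0162), with 1.24 and 0.78 in wild-type and -0.09 and 0.10 in Trp53-/-. Trib3 differed by 0.90 (q = 0.0195), with -0.11 and -0.03 in wild-type and -0.76 and -1.17 in Trp53-/-. Chac1 differed by 0.73 (q = 0.0300), with -0.35 and -0.08 against -0.99 and -0.89. S100b, an astrocyte marker, differed by 0.69 (q = 0.0372), with 0.06 and 0.07 against -0.77 and -0.48. The 4 astrocyte markers split into 2 positive and 2 negative differences, with Gfap at -1.02 (q = 0.189 in limma). Cdkn1a differed by 2.14 (q = 0.000752), with 1.84 and 1.23 against -0.48 and -0.74. None of these differences passed the threshold in the ratios of the scanner software.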

How the results depend on the processing

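The direction of the synthetase response depended on how ratios were centred, and the calls on single arrays, so with 2 arrays per genotype, no dye swap and differences under 0.5 on the log2 scale these data limit what can be said of any single gene. With each array centred on the median of all spots, 0 synthetases were called lower in either genotype and 7 in wild-type and 10 in Trp53-/- were called higher. In wild-type the log2 ratio was then 0.34 for Aars, 0.54 for Cars, 0.53 for Eprs, 0.34 for Gars, 0.46 for Iars, 0.44 for Lars, 0.37 for Mars, 0.35 for Nars, 0.61 for Wars, 0.053 for Asns, 0.43 for Atf4, 0.25 for Tars2 and 0.19 for Tarsl2. In Trp53-/- it was 0.55 for Aars, 0.52 for Cars, 0.68 for Gars, 0.79 for Iars, 0.73 for Lars, 0.71 for Mars, 0.60 for Nars, 0.85 for Sars, 0.81 for Wars, 0.15 for Asns, 0.58 for Atf4, 0.17 for Ddit4, 0.043 for Eif4ebp1, 0.065 for Cdkn1a and 0.43 for Tars2. The difference turned to -0.21 for Aars, -0.13 for Sars and -0.19 for Wars. With the kept probes centred on their median, a setting chosen after seeing the data, 0 synthetases were called lower and 1 in wild-type and 2 in Trp53-/- higher, with wild-type values of 0.12 for Cars, 0.11 for Eprs, 0.039 for Iars, 0.022 for Lars, 0.19 for Wars and 0.014 for Atf4. Trp53-/- values were 0.11 for Gars, 0.22 for Iars, 0.16 for Lars, 0.14 for Mars, 0.031 for Nars, 0.27 for Sars, 0.23 for Wars and 0.0065 for Atf4, and the difference was -0.056 for Aars and -0.039 for Wars. With the scanner software's ratios 0 synthetases were called in either genotype and the difference of Gars was 0.0050. Untreated differences of Eprs and Lars were 0.041 and 0.061 with the control channel centred on its median and 0.016 and 0.049 with the scanner software's control signal. The causes of these changes were not tested. Under all other alternatives that kept all arrays, 2 to 4 synthetases were called lower in each genotype and 0 in the difference and in untreated cells.

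Leaving out 1 array at a time, with a lone array assumed to vary like the other genotype, gave 0 to 4 lower calls in wild-type, 1 to 3 in Trp53-/- and 0 to 6 calls in untreated cells. The untreated calls were most and fewest where those over all probes, given below, were also most and fewest. Where they were most, both went in both directions, so this range is not particular to the synthetases. The difference ran from -0.031 to 0.18 for Aars, -0.12 to 0.067 for Gars, -0.12 to 0.048 for Lars and -0.11 to 0.040 for Nars, the untreated difference from -0.72 to 0.46 for Eprs, -0.59 to 0.28 for Lars and -0.0055 to 0.23 for Mars, and the wild-type response of Sars from -0.11 to 0.16.

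Over all probes, calls in wild-type, in Trp53-/-, in the difference and in untreated cells numbered 6154, 5858, 395 and 1631. Counts that moved by over 1.5 times were 3839 in Trp53-/- and 702 untreated with Benjamini-Hochberg adjustment, 36 in the difference with an offset of 16 and 219 without background correction, 15125, 17669 and 43 (wild-type, Trp53-/-, difference) with all spots centred, 12470 and 15732 (wild-type, Trp53-/-) with the kept probes centred, 1969, 839, 0 and 688 with the scanner software's values, and 0 untreated with the control channel centred. With the kept probes centred, 23% and 23.1% of probes were called lower and higher in wild-type, and 30.8% and 27.4% in Trp53-/-. Lower and higher calls were 0.403% and 55.5% of probes in wild-type and 0.414% and 64.9% in Trp53-/- with all spots centred. Without single arrays they were 2885 and 3056 in wild-type, 3126 and 1761 in Trp53-/-, 666 in the difference without Trp53-/- replicate 1, and 9363, 11728, 0 and 0 untreated. With the replicate number as a block, 2 synthetases were called lower in wild-type and 3 in Trp53-/-, and calls over all probes numbered 5244, 4962, 471 and 3241; the numbers do not pair the arrays. With the numbers crossed between the genotypes, also added after seeing the data, 4 and 4 synthetases were called lower, and calls over all probes numbered 8039, 7894, 1224 and 1788.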
